A study of Mus musculus with 11 samples.

Results

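The contactin and Caspr (contactin-associated protein) genes of the myelinated axon form the group described here, taken as the 7 genes Cntn1, Cntnap1, Cntn2, Cntnap2, Cntnap4, Adam22 and Lgi3. They were chosen by name, from knowledge of the junctions that flank the node of Ranvier. All 7 were among the 22609 genes listed in the count table, and all 7 passed the filter of at least 10 counts in total that left 17557 genes for testing. None of the 7 was differentially expressed between any of the genotypes compared. Over the 3 comparisons of a knockout with control, the 21 fitted log2 fold changes lay between -0.14 and 0.12, and their 95% intervals between -0.37 and 0.34.

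On either side of a node, the membrane of the axon is held to the loops of myelin at the paranode. There contactin (Cntn1), an adhesion molecule anchored in the membrane by a lipid, pairs on the axon with Caspr (Cntnap1) and faces the glial form of neurofascin. Next to the paranode lies the juxtaparanode, where the contactin relative Cntn2 and the Caspr relative Cntnap2 hold voltage-gated potassium channels beneath the myelin, and where Adam22, a receptor without protease activity, binds secreted LGI proteins such as Lgi3. In the cerebellum, relatives of these potassium channel complexes also gather in the pinceau, the basket of interneuron terminals around the initial segment of the Purkinje cell axon.

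The data are bulk RNA-seq of 11 polyadenylated libraries, labelled as cerebellar hemisphere of untreated mice of both sexes on a mixed C57BL/6J and 129 background, each marked as a biological replicate. Sample descriptions gave postnatal day 30 and the growth protocol postnatal day 32. The control group (n = 3) carried floxed alleles of Nfasc, which encodes neurofascin, and Ank3, which encodes ankyrin G, in one passage of the methods both and in another either or both. By the methods they carried no Cre, although elsewhere the study's text gives the controls Pcp2-Cre. NFKO mice (n = 3) carried Pcp2-Cre with floxed Nfasc, AnkGKO mice (n = 2) Pcp2-Cre with floxed Ank3, and DKO mice (n = 3) Pcp2-Cre with both. Pcp2-Cre is described as driving Cre mainly in Purkinje cells. The methods name 3 AnkGKO mice, of which 2 libraries were analysed here.

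Reads counted on genes totalled 38890851 to 55822361 per library. The cerebellar label was checked against marker genes. Pcp2, expressed by Purkinje cells, stood at 26.3 CPM (counts relative to library size, scaled by edgeR's TMM factors) in control replicate 1 and 28.3 in NFKO replicate 1, and at 0.0929 to 2.14 in the other 9 libraries. Gabra6, a granule cell receptor subunit, was at 84.2 and 59.0 CPM in those 2 libraries and at 0.0186 to 4.41 in the rest, where a floor of 3 counts corresponds to 0.0546 to 0.0714 CPM and covers counting error only. The summed CPM of 8 granule cell markers ranged from 81.9 to 677, that of 10 Purkinje cell markers from 306 to 1425 and that of 12 caudal Hox genes, which are active in spinal cord, from 395 to 615 over all libraries. The 12 oligodendrocyte markers, which include the major myelin genes, summed to between 28611 and 35207 CPM. Pcp2 and Gabra6 were thus at 4.41 CPM or less in 9 of 11 libraries labelled cerebellar, and the member results were also computed without control replicate 1 and NFKO replicate 1. Markers of Schwann cells, the myelinating glia of peripheral nerve, summed to 231 to 409 CPM in control, 569 to 626 in NFKO, 261 and 483 in AnkGKO and 191 to 420 in DKO, so the NFKO libraries lay above all others. Astrocyte markers were highest in both AnkGKO libraries, at 7659 and 7950 CPM against 5179 to 6717 elsewhere. The other lists summed to 8959 to 12828 CPM for neurons, 217 to 597 for cholinergic motor neurons, 238 to 345 for microglia, 523 to 754 for oligodendrocyte precursors and 2.45 to 296 for skeletal muscle.

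**Figure D1:**
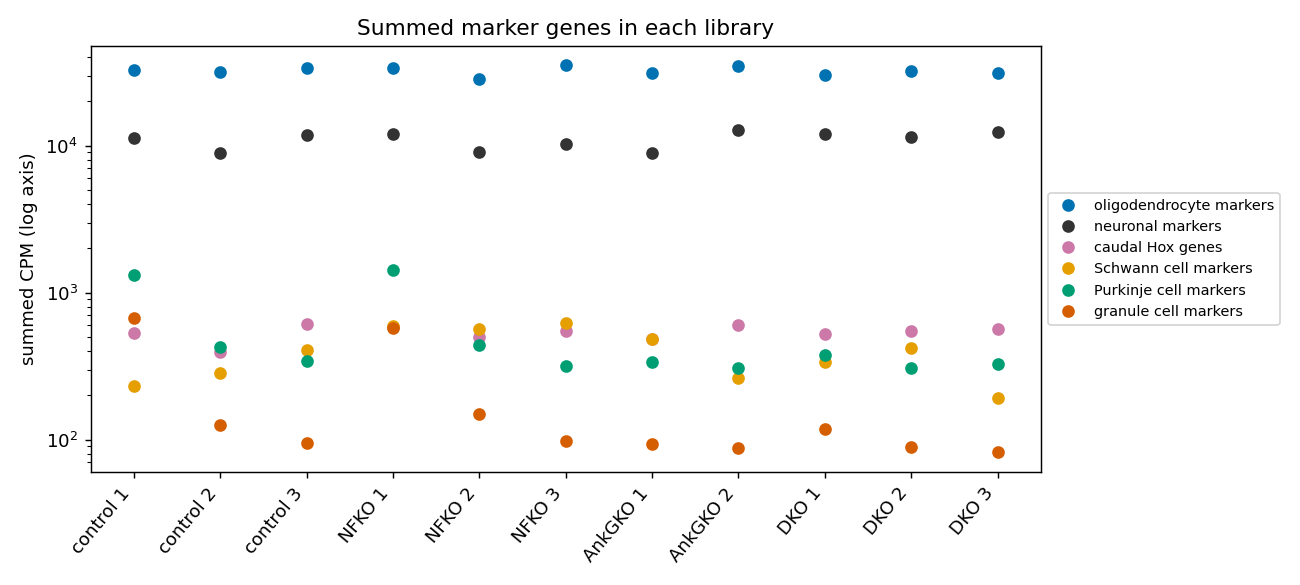
Summed TMM-normalized CPM of marker lists (log axis) in each of the 11 libraries. Oligodendrocyte markers ran from 28611 to 35207 CPM, granule and Purkinje cell markers stood out in control 1 and NFKO 1, and Schwann cell markers were highest in the 3 NFKO libraries, at 569 to 626 CPM.

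The targeted genes were read first. Ank3 was at 360, 375 and 353 CPM in control, 407, 386 and 385 in NFKO, 156 and 200 in AnkGKO, and 185, 160 and 174 in DKO. It fell in AnkGKO (log2 fold change -1.03, standard error 0.10, adjusted p = 0.00108) and in DKO (-1.07, standard error 0.09, adjusted p = 0.000461) by the quasi-likelihood test of edgeR, adjusted over all genes tested by the method of Benjamini and Hochberg. In these same AnkGKO and DKO libraries the Purkinje cell marker Pcp2 was at 0.103 to 0.374 CPM. Nfasc was at 718, 661 and 690 CPM in control, 701, 622 and 635 in NFKO, 717 and 953 in AnkGKO, and 559, 606 and 603 in DKO. The control and NFKO libraries overlapped, and the NFKO log2 fold change of -0.08 (standard error 0.09) did not pass the test (adjusted p = 0.969). The count of the whole Nfasc gene therefore did not separate the libraries labelled NFKO from control. In DKO, Nfasc had a log2 fold change of -0.23 against control (standard error 0.09, adjusted p = 0.619 by edgeR). Against AnkGKO its value in DKO was -0.50 (standard error 0.10, adjusted p = 0.137). The DKO libraries overlapped neither group, as for 14.4% of all genes against control and 23.7% against AnkGKO. In bulk tissue, fewer cells of a type and less RNA per cell cannot be told apart.

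How abundant the 7 transcripts were was compared per kilobase of exon, as CPM per kilobase over the union of annotated exons in the control libraries. Cntn2 was highest at 64.9 ± 3.09 (SD, n = 3), followed by Cntnap1 at 57.5 ± 1.95 and Lgi3 at 57.4 ± 3.53. Cntn1 was at 31.1 ± 0.782, Cntnap2 at 13.5 ± 0.740, Adam22 at 12.3 ± 0.375 and Cntnap4 at 4.55 ± 0.258. The control libraries of Cntnap1 and Lgi3 overlapped on this scale, whereas those of every other pair of neighbours in the order did not. The order depends on the exon length used. Divided by the longest annotated transcript instead, Cntn1 moved up to second place at 75.0 CPM per kilobase, behind Cntn2 at 84.4 and ahead of Lgi3 at 68.0 and Cntnap1 at 63.0, and Adam22, at 25.5, moved ahead of Cntnap2, at 14.1. Cntnap4 was the lowest of the 7 on both scales. Cntnap2 was lower per kilobase than its partner Cntn2 on both scales. The 8 other contactin and Caspr genes ranged in control from 0.134 CPM per kilobase (Cntnap3) to 4.66 (Cntn4), so that none was far above Cntnap4.

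**Figure D2:**
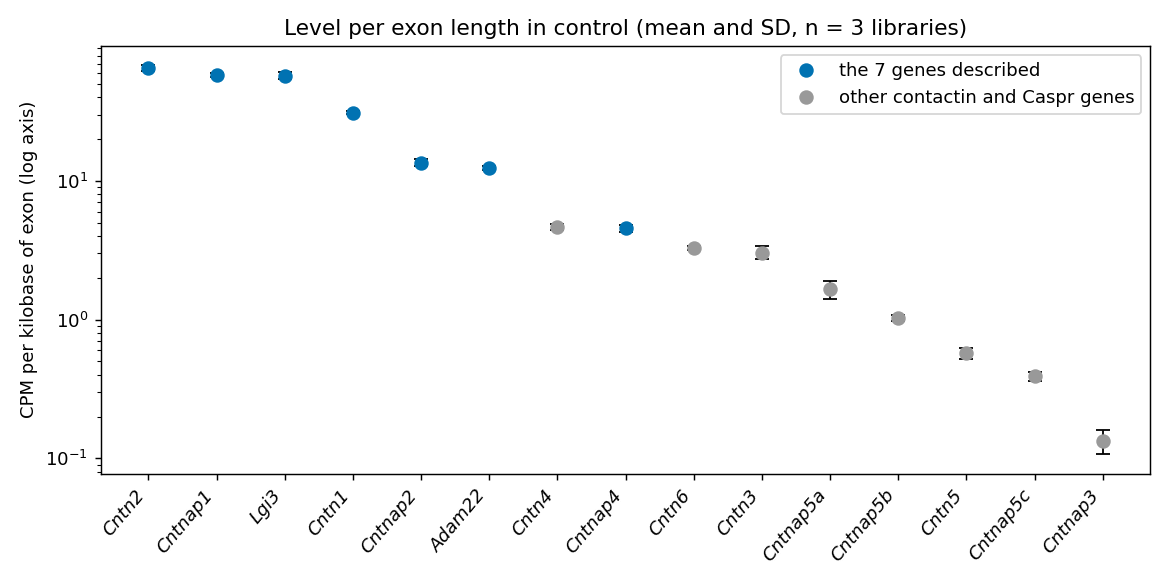
Level per kilobase of exon in the 3 control libraries (CPM per kilobase, log axis, mean and SD) for the 7 genes described and the 8 other contactin and Caspr genes. All of the 7 except Cntnap4, at 4.55, lie above every relative, the highest of which is Cntn4 at 4.66.

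The spread of the 7 was read over all 11 libraries. The highest library exceeded the lowest by 1.16-fold for Adam22, 1.19-fold for Cntnap1, 1.22-fold for Cntn1, 1.28-fold for Cntnap4, 1.36-fold for Lgi3, 1.38-fold for Cntn2 and 1.42-fold for Cntnap2. As an SD of log2 CPM this was 0.07 for Adam22 and Cntnap1 and 0.15 for Cntnap2, against a median of 0.10 over the 6625 genes with a mean of at least 30 CPM. The members of the juxtaparanodal pair, Lgi3 and, at 0.11, Cntnap4 therefore varied more than the median gene of that range, and the paranodal pair and Adam22 less.

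**Figure D3:**
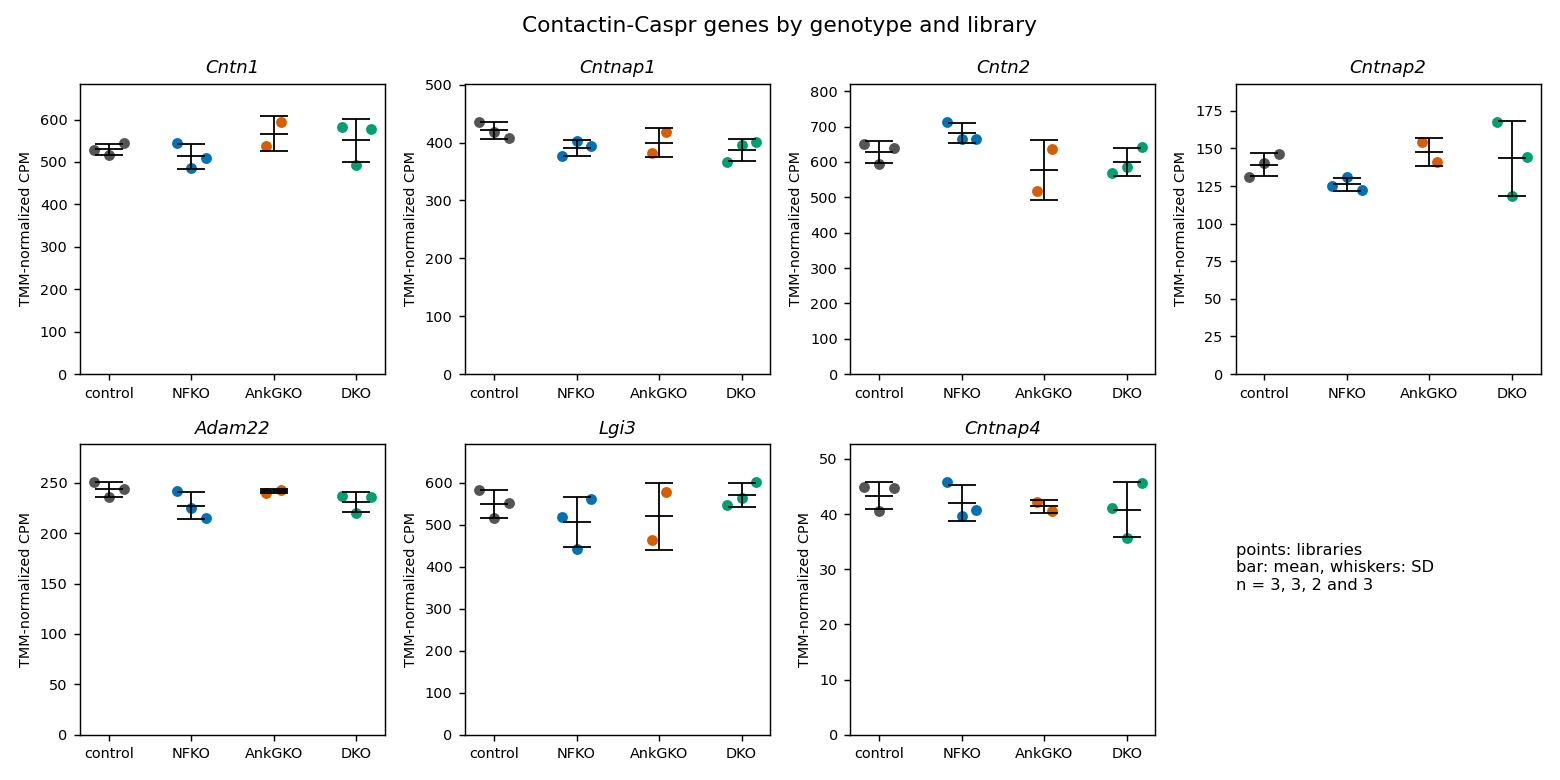
TMM-normalized CPM of each of the 7 genes in every library, by genotype (points are libraries, bars the mean and whiskers the SD, n = 3, 3, 2 and 3). The genotypes lie close together for every gene. Cntn2 in NFKO lies above all other libraries, and Cntnap1 in NFKO and DKO below the controls. Cntnap2 in NFKO lies below the controls and AnkGKO. None of these differences passed the test.

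Cntn1, the axonal contactin of the paranode (GRCm39, 15:91948938-92240393, plus strand), was at 527.5, 517.4 and 543.8 CPM in control and at 543.7, 486.7 and 509.3 in NFKO. It was at 537.7 and 595.4 CPM in AnkGKO and at 583.1, 492.6 and 577.3 in DKO. The highest value was that of AnkGKO replicate 2, and each knockout overlapped the controls. Its log2 fold changes against control were -0.05 (NFKO, standard error 0.08, adjusted p = 0.994), 0.10 in AnkGKO (standard error 0.09, adjusted p = 0.998) and 0.06 in DKO (standard error 0.08, adjusted p = 0.870) by edgeR.

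Cntnap1, which encodes Caspr, the partner of contactin at the paranode (11:101061349-101082747, plus strand), was at 436.2, 418.2 and 408.1 CPM in control and at 376.1, 402.5 and 393.2 in NFKO. It was at 382.4 and 417.5 CPM in AnkGKO and at 366.1, 395.3 and 400.2 in DKO. All NFKO and all DKO libraries thus lay below the lowest control, while AnkGKO replicate 2 lay within the controls. The differences were small, with log2 fold changes of -0.11 in NFKO (standard error 0.06, 95% interval -0.24 to 0.03) and -0.12 in DKO (standard error 0.06, 95% interval -0.26 to 0.01), and neither passed edgeR's test (adjusted p = 0.790 and 0.654). Libraries that do not overlap and are lower than control were found for 6.51% of all genes tested in NFKO and for 6.80% in DKO. Cntnap1 overlaps Plekhh3, Ccr10 and Ezh1 on the opposite strand, and 13.2% of its exonic 50-base words occur also in other genes on either strand. The libraries were strand-specific, but the strand setting of the counting is not given in the sources used here, and how many reads were ambiguous was not tested.

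Within each library, where depth and scaling cancel, the ratio of Cntn1 to Cntnap1 counts was 1.21 to 1.33 in control, 1.21 to 1.45 in NFKO, 1.41 and 1.43 in AnkGKO and 1.25 to 1.59 in DKO. Both AnkGKO libraries were above the highest control for this ratio, and the other genotypes overlapped the controls. The ratio is given as a description with no test.

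Cntn2, the contactin of the juxtaparanode that is also made by myelinating glia (1:132437165-132470994, minus strand), was at 651.1, 594.3 and 638.9 CPM in control and at 714.3, 664.4 and 664.5 in NFKO. It was at 517.3 and 637.2 CPM in AnkGKO and at 568.3, 584.6 and 643.5 in DKO. Each NFKO library was above all 8 other libraries, a pattern found for 2.23% of all genes tested, and NFKO libraries above all controls were found for 7.42%. Against control, edgeR gave a log2 fold change for NFKO of 0.12 (standard error 0.08, 95% interval -0.06 to 0.30, adjusted p = 0.883), -0.12 in AnkGKO (standard error 0.09, adjusted p = 0.998) and -0.07 in DKO (standard error 0.08, adjusted p = 0.851). Cntn2 was also the only one of the 7 with an unadjusted p under 0.05 in any comparison by edgeR fitted to all 11 libraries without a covariate. It reached it in DKO against NFKO, where 16.2% of all genes did, and in NFKO against AnkGKO, where 7.63% did. Its value in DKO was below that in NFKO by 0.19 on the log2 scale (unadjusted p = 0.0456, adjusted p = 0.301), with libraries that do not overlap in either direction for 19.3% of all genes. In NFKO it was 0.24 higher than in AnkGKO (standard error 0.09, unadjusted p = 0.0256, adjusted p = 0.544), or 0.10 without AnkGKO replicate 1 and 0.39 without AnkGKO replicate 2. The value in AnkGKO rested on which of its 2 libraries was used, at -0.28 against control without replicate 2 and 0.02 without replicate 1. The comparison of DKO with AnkGKO, 0.05, likewise changed sign between these fits. The Schwann cell markers were highest in the same 3 NFKO libraries, and with their summed level as a covariate the NFKO value of Cntn2 was 0.28 (unadjusted p = 0.0207, adjusted p = 1). Cntn2 lies 21.4 kb from the floxed gene Nfasc, which is at 1:132492428-132669564 on the same strand.

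Cntnap2, which encodes the Caspr relative of the juxtaparanode and spans 2245 kb (6:45036291-47281147, plus strand), was at 131.1, 140.1 and 146.2 CPM in control and at 125.0, 130.7 and 122.4 in NFKO. It was at 153.9 and 140.8 CPM in AnkGKO and at 167.9, 118.3 and 144.3 in DKO. The NFKO libraries lay below all controls by a narrow gap, and the DKO libraries held both the highest and the lowest value of all 11. For NFKO the log2 fold change was -0.14 (standard error 0.10, 95% interval -0.37 to 0.09, adjusted p = 0.887), 0.08 in AnkGKO (standard error 0.12, adjusted p = 0.998) and 0.04 in DKO (standard error 0.10, adjusted p = 0.936). The DKO value turned to -0.08 without DKO replicate 1 and was 0.16 without DKO replicate 2. Without the latter, Cntnap2 was 0.31 higher in DKO than in NFKO (unadjusted p = 0.00307, adjusted p = 0.0812), against 0.19 with all libraries. It differed between NFKO and AnkGKO by -0.23 (standard error 0.12, unadjusted p = 0.0758, adjusted p = 0.712), the libraries of which did not overlap, as for 23.9% of all genes.

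The count ratio of Cntn2 to Cntnap2 within a library was 4.24 to 4.97 in control and 5.08 to 5.71 in NFKO. It was 3.36 and 4.53 in AnkGKO and 3.39 to 4.94 in DKO. The NFKO libraries held the 3 highest ratios, and the lowest ratios were those of AnkGKO replicate 1 and DKO replicate 1. These ratios, too, are a description with no test.

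Adam22, the receptor of LGI proteins that associates with potassium channels of the juxtaparanode (5:8122352-8418263, minus strand), was at 250.4, 235.6 and 243.7 CPM in control and at 241.8, 224.9 and 215.0 in NFKO. It was at 240.0 and 242.7 CPM in AnkGKO and at 237.1, 219.5 and 236.0 in DKO. Its levels overlapped between control and each knockout, and both AnkGKO libraries were above the 3 of DKO (these genotypes do not overlap for 23.7% of all genes). Relative to control, its log2 differences were -0.10 (NFKO, standard error 0.06, adjusted p = 0.825), -0.01 in AnkGKO (standard error 0.07, adjusted p = 0.998) and -0.08 in DKO (standard error 0.06, adjusted p = 0.757). Adam22 overlaps Sri on the opposite strand and shares 29.7% of its 50-base words with other genes, with the same limit.

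Lgi3, a secreted ligand of Adam22 (14:70767988-70780355, plus strand), was at 582.7, 515.2 and 551.2 CPM in control and at 517.9, 442.0 and 560.8 in NFKO. It was at 463.6 and 577.1 CPM in AnkGKO and at 546.9, 564.5 and 601.2 in DKO. The lowest libraries were NFKO replicate 2 and AnkGKO replicate 1, the highest was a DKO library, and each knockout overlapped the controls. Compared with control, Lgi3 had log2 differences of -0.12 (NFKO, standard error 0.10, adjusted p = 0.933), -0.08 in AnkGKO (standard error 0.11, adjusted p = 0.998) and 0.05 in DKO (standard error 0.10, adjusted p = 0.912). The AnkGKO value was -0.24 without AnkGKO replicate 2 and 0.07 without AnkGKO replicate 1. Between DKO and NFKO the difference was 0.17, and 0.25 with the oligodendrocyte markers as a covariate (unadjusted p = 0.00266, adjusted p = 0.0797). The count ratio of Lgi3 to Adam22 was 2.19 to 2.33 in control, 1.97 to 2.61 in NFKO, 1.93 and 2.38 in AnkGKO and 2.31 to 2.57 in DKO.

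Cntnap4, a Caspr family member known from the synapses of interneurons rather than from the node (8:113296608-113610662, plus strand), was at 44.8, 40.5 and 44.7 CPM in control and at 45.8, 39.7 and 40.7 in NFKO. It was at 42.2 and 40.6 CPM in AnkGKO and at 41.1, 35.8 and 45.6 in DKO. All genotypes overlapped, and DKO held the lowest library. Its log2 fold changes were -0.04 in NFKO (standard error 0.09, adjusted p = 0.995), -0.07 in AnkGKO (standard error 0.10, adjusted p = 0.998) and -0.09 in DKO (standard error 0.09, adjusted p = 0.824).

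Read as a group, 0 of 7 passed the threshold (adjusted p under 0.05 with a log2 fold change of at least 0.6 either way) in NFKO against control, where 0.365% of all genes tested did. The count was also 0 of 7 in AnkGKO (0.165% of all genes) and in DKO (0.0228%) against control, in DKO against NFKO (0.615%), in DKO against AnkGKO (0.171%) and in NFKO against AnkGKO (0.404%). With so few genes called, a count of 0 among 7 is near the background in each comparison. The number with an unadjusted p under 0.05 was 0 of 7 in each comparison with control, where 7.69% of all genes in NFKO, 5.39% in AnkGKO and 7.77% in DKO reached it. DESeq2 also called 0 of 7 in each comparison, where it called from 44 (DKO against control) to 1137 genes (any difference) in all. It gave an unadjusted p under 0.05 to Cntnap1 in DKO against control (unadjusted p = 0.0399). Cntn2 also reached this in DKO against NFKO, in NFKO against AnkGKO and across the 4 genotypes. The share of all genes that reached it with DESeq2 is not given here. Leaving out control replicate 1 and NFKO replicate 1 together, and taking the Schwann cell or the oligodendrocyte markers as a covariate, also left 0 of 7. The comparisons with control share the 3 control libraries.

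The intervals bound what these libraries could have missed. In the 21 comparisons of a member with control, no 95% interval reached 0.6 on the log2 scale in either direction, and the outermost bounds were those of Cntnap2, at 0.774-fold in NFKO and 1.26-fold in AnkGKO. Over all 6 pairwise comparisons, the 42 intervals reached from 0.718-fold (Cntnap2) to 1.36-fold (Cntn2), both in NFKO against AnkGKO. The intervals were not widened for the number of genes or comparisons.

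**Figure D4:**
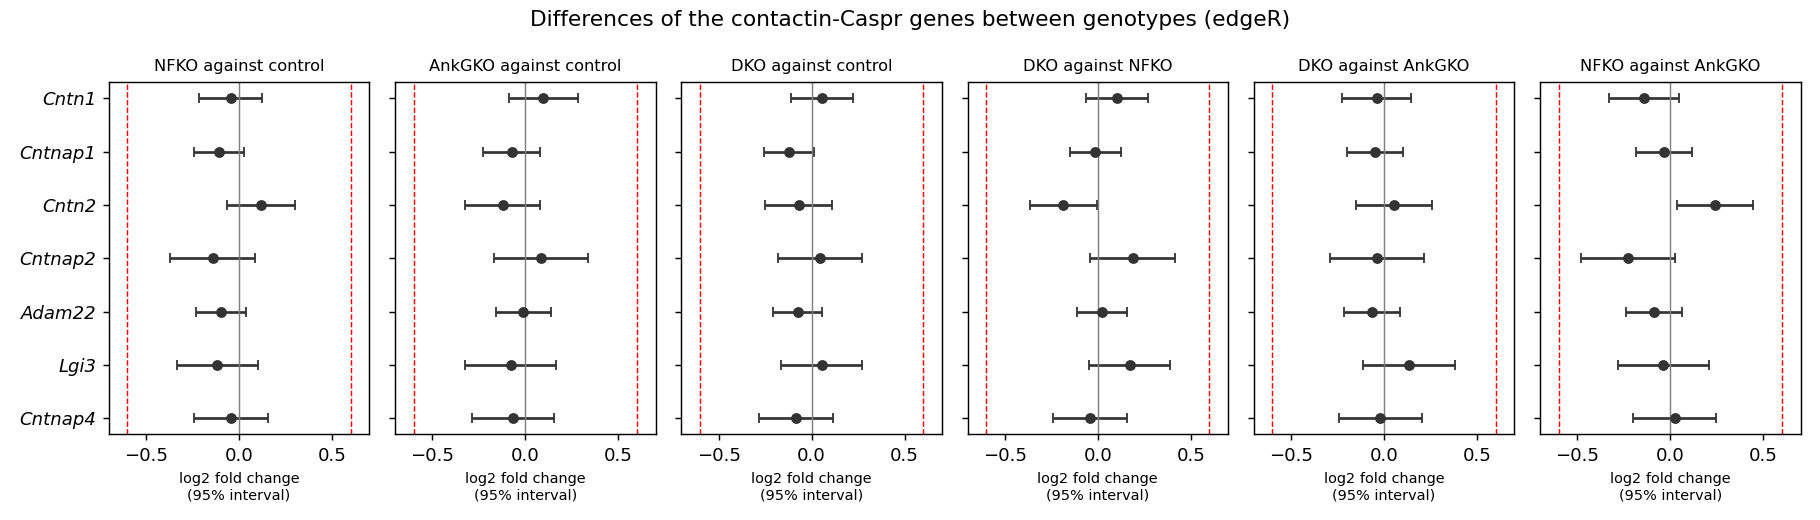
Log2 fold changes of the 7 genes in the 6 pairwise comparisons, with 95% intervals from edgeR (dashed lines mark 0.6 in either direction). All 42 intervals lie within the dashed lines, and 2 of them, both of Cntn2, do not include 0.

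In direction, 6 of 7 were lower than control in NFKO, with a median log2 fold change of -0.10 against -0.005 over all genes, 5 of 7 were lower in AnkGKO (median -0.07) and 4 of 7 in DKO (median -0.07). Cntn1, Cntnap4 and Lgi3 each changed sign in 1 of 23 alternatives in NFKO against control. With the Schwann cell markers as a covariate they turned to 0.05, 0.06 and 0.03. That covariate was chosen after seeing the data. It was highest in the NFKO libraries, so this fit cannot separate it from the genotype. Cntn2, Cntnap1, Cntnap2 and Adam22 kept their sign in every alternative of this comparison. In NFKO against control, 3 of 7 had libraries that did not overlap, namely Cntn2 upward and Cntnap1 and Cntnap2 downward, beside 13.9% of all genes. In AnkGKO the number was 0 of 7 beside 24.0%, and in DKO it was 1 of 7, Cntnap1, beside 14.4%. Whether deleting both genes differed from the sum of the single deletions was asked by the interaction of the knockouts. It was called for 0 of 7 and for 0.541% of all genes, with 0 of 7 at an unadjusted p under 0.05 beside 10.3% of all genes. Lgi3 had the largest value (0.25, standard error 0.15, adjusted p = 0.622), which ranged from 0.08 to 0.41 over the alternatives and had an unadjusted p of 0.00407 with the oligodendrocyte covariate (adjusted p = 0.170). A test of any difference among the 4 genotypes called 0 of 7 and 0.723% of all genes, with Cntn2 nearest (unadjusted p = 0.0918, adjusted p = 0.521).

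Around the 7 genes, a set of 46 further genes was read, made of 11 paranodal partners, 12 juxtaparanodal partners, 15 genes of the node and the 8 relatives. Against control, 0 of 11 paranodal partners passed in NFKO and 1 of 11, Ank3, in AnkGKO and in DKO, in each case downward. Of the 12 juxtaparanodal partners, 1 rose in NFKO and 0 passed in AnkGKO and DKO. None of the 15 node genes and none of the 8 relatives passed in any of the 8 comparisons by edgeR. Over all genes tested, 0.365% passed in NFKO, 0.165% in AnkGKO and 0.0228% in DKO against control. With an unadjusted p under 0.05 there were 1, 1 and 2 of the 15 node genes in NFKO, AnkGKO and DKO against control, and 0 of the 8 relatives in each. In the same order there were 0, 2 and 2 of the 11 paranodal and 1, 1 and 2 of the 12 juxtaparanodal partners. Over all genes these shares were 7.69, 5.39 and 7.77%. DESeq2 called 1 node gene, Gldn, in NFKO against control (adjusted p = 0.00113), where it called 159 genes in all. It called no relative in any comparison. In the test of any difference among the genotypes it also called Nfasc, Lgi4, Gldn and Scn2b, beside 1137 of the 17557 genes tested.

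The juxtaparanodal partner that rose was Adam11, a relative of Adam22 that positions potassium channels at the pinceau (11:102652229-102671088). It was at 183.4, 155.7 and 132.9 CPM in control and at 292.2, 293.5 and 290.5 in NFKO. It was at 142.4 and 138.8 CPM in AnkGKO and at 241.3, 159.7 and 202.4 in DKO. The NFKO libraries were nearly equal to each other and above all others, the latter as for 2.23% of all genes, whereas DKO overlapped the controls. It rose by 0.89 on the log2 scale against control in NFKO (standard error 0.14, adjusted p = 0.0224) and was 1.05 higher in NFKO than in AnkGKO (standard error 0.16, adjusted p = 0.0207). It was 0.35 in DKO against control (adjusted p = 0.619) and -0.54 in DKO against NFKO (adjusted p = 0.125). For DKO against NFKO, DESeq2 gave an adjusted p of 0.00351, without a call at the fold threshold of 0.6. Without DKO replicate 1 the DKO value against control was 0.20, and DKO against NFKO ranged from -0.74 to -0.40 over the alternatives. The NFKO value against control ranged from 0.78 to 1.10 over the alternatives, but its adjusted p was 0.117 without control replicate 2, 0.0809 without control replicate 3, 0.0887, 0.0864 and 0.0940 without NFKO replicate 1, 2 and 3, and 0.0529 without AnkGKO replicate 2. Without both control replicate 1 and NFKO replicate 1 it was 1.02 (adjusted p = 0.0646), and with the Schwann cell markers as a covariate 1.10 (adjusted p = 0.109). Adam11 was called in 14 of 23 alternatives in NFKO against control, DESeq2 among them (adjusted p = 1.62e-08). In NFKO against AnkGKO it was called in 18 of 23, also by DESeq2 (adjusted p = 1.97e-09). Against AnkGKO, the adjusted p was 0.0753, 0.0638 and 0.0773 without NFKO replicate 1, 2 and 3, and 0.169 and 0.239 without AnkGKO replicate 1 and 2.

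**Figure D5:**
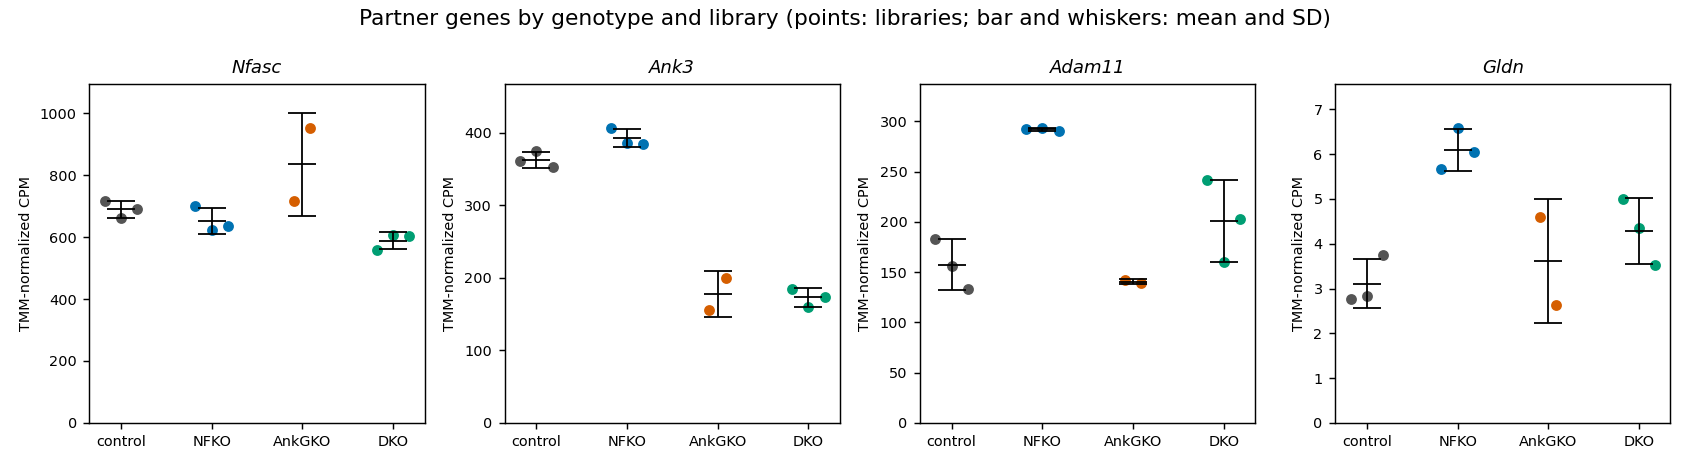
TMM-normalized CPM of the floxed genes Nfasc and Ank3 and of the partner genes Adam11 and Gldn in every library, by genotype (points are libraries, bars the mean and whiskers the SD). Ank3 is lower in AnkGKO and DKO, and Adam11 sits between 290.5 and 293.5 in the 3 NFKO libraries, above every other library.

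Among the remaining partners, those with the smallest p against control did not pass the test of edgeR. Gldn, which encodes gliomedin, a nodal ligand secreted by Schwann cells, was at 2.76, 2.84 and 3.74 CPM in control and 5.66, 6.59 and 6.04 in NFKO, which is 0.97 higher on the log2 scale (standard error 0.21, adjusted p = 0.0959). Its NFKO libraries were above all others, a pattern found for 2.23% of all genes, and so were the summed Schwann cell markers. Kcnab1, a potassium channel beta subunit, had a log2 fold change of -0.22 in NFKO (adjusted p = 0.721). In AnkGKO, Nfasc itself had a value of 0.28 (adjusted p = 0.774), and in DKO Lgi4, a ligand of the LGI family, had one of 0.27 (adjusted p = 0.602). Sptbn4, which encodes the beta-IV spectrin that links ankyrin G to the axonal cytoskeleton, was at 226.5, 213.2 and 192.6 CPM in control, 201.6, 217.9 and 212.0 in NFKO, 183.7 and 189.0 in AnkGKO, and 184.5, 182.3 and 195.5 in DKO. Both AnkGKO libraries lay below all controls (AnkGKO and control do not overlap for 24.0% of all genes), and 1 DKO library overlapped the controls. The log2 difference of Sptbn4 from control was -0.18 in AnkGKO (standard error 0.08, unadjusted p = 0.0372, adjusted p = 0.864) and -0.17 in DKO (standard error 0.07, unadjusted p = 0.0274, adjusted p = 0.619).

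Which genes varied over the 11 libraries most like each of the 7 was read from Pearson's r of log2 CPM with a pseudocount of 0.5 over 13909 genes, as a description. The libraries share genotype and cell makeup, so these values carry no p. Cntn1 varied most like Strbp (r = 0.974), Pdzd8 and Atg2b, and Cntnap1 most like Syn1 (r = 0.939), which encodes a synaptic vesicle protein, Gm1078 and Lrrc68. Cntn2 varied most like Lrrfip1 (r = 0.920), Etv4 and Gprc5b. Cntnap2 varied most like Ntrk2 (r = 0.941), the receptor of brain-derived neurotrophic factor, Gprin2 and Nrg3. For Adam22 the closest were Scrn1 (r = 0.959), Apba2 and Gm13629, for Lgi3 they were 6330512M04Rik (r = 0.937), Cplx1 and Ndufa10, and for Cntnap4 they were Zfp644 (r = 0.859), Stxbp5l and Thnsl1. None of the 7 was among the 3 closest genes of another. Partners in the same complex did not vary closely together, with r = -0.16 for Cntn1 and Cntnap1, -0.56 for Cntn2 and Cntnap2 and 0.13 for Adam22 and Lgi3 over the 11 libraries.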

How the data were processed

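Bulk RNA-seq of 11 libraries was used, grouped by their labels. The authors trimmed and aligned reads (Trimmomatic 0.39, STAR 2.7.11a, GRCm39, per the submitters' notes) and deposited raw counts per gene. The normalized signal that the authors deposited is these counts divided by size factors (0.815 to 1.16). The 5 summary lines, 42.7 to 43.8% of reads, were excluded. Genes reaching 10 counts in total were fitted over all 4 genotypes with edgeR 4.0.16 in R 4.3.3 (TMM, robust quasi-likelihood test, Benjamini-Hochberg adjustment), and called at an adjusted p under 0.05 with a log2 fold change of 0.6 or more either way. DESeq2 1.42.0 was an alternative. Both were run on simulated counts with known changes, drawn from the overall means and fitted dispersions of the genes. A pass condition was set for edgeR only. The simulated counts held no differences in cell makeup between libraries. Positions and exon lengths came from GENCODE on GRCm39. P-values measure the spread between libraries labelled as biological replicates.

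The members and lists were chosen with earlier results of these data known. The text names all 7 members, Nfasc and Ank3, list genes that passed a call or had the 3 smallest p per comparison with control, the 3 genes most alike to each member, and Pcp2, Gabra6 and marker sums. Same-numbered NFKO and control libraries deviated together (r = 0.597, 0.500 and 0.229), so a replicate block was fitted as an alternative. Those of AnkGKO deviated in opposite directions from control (r = -0.378 and -0.485) and from NFKO (r = -0.362 and -0.353). In the comparisons of DKO, r ran from -0.106 to 0.375. The labels do not say what the replicate numbers stand for. Other alternatives were size factors, expression filters, only the libraries compared, a stricter fold threshold, marker covariates and leaving out libraries. The Schwann cell covariate, the joint removal of control 1 and NFKO 1 and the reading of Adam11 through the alternatives were chosen after seeing the data.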

Additional observations from a re-analysis of the deposited data

How the results depend on the processing

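None of the 7 contactin-Caspr genes was called under any alternative run, over 1106 alternative log2 fold changes, of which 60 had another sign than the value reported. The largest shift was 0.19. The number of all genes called depended more on the processing. In the order of the 3 knockouts (NFKO, AnkGKO, DKO) against control, then DKO against NFKO, DKO against AnkGKO, NFKO against AnkGKO, the interaction and any difference, it was 64, 29, 4, 108, 30, 71, 95 and 127 with edgeR and 159, 102, 44, 418, 99, 199, 485 and 1137 with DESeq2. Leaving out each library in turn gave 40 to 71, 18 to 35, 4 to 8, 68 to 162, 12 to 40, 28 to 76, 53 to 111 and 82 to 169. With the replicate number as a block it was 55, 21, 4, 85, 30, 53, 76 and 104, and the block changed no call of the 7 genes. Using only the libraries compared, DKO against AnkGKO called 11 genes. For DKO against NFKO, a threshold of 1 on the log2 scale gave 69 and the oligodendrocyte covariate 194. Without control 1 and NFKO 1, NFKO against control, DKO against NFKO, NFKO against AnkGKO, the interaction and any difference called 29, 59, 33, 41 and 62 genes, and with the Schwann cell covariate 25, 29, 41, 40 and 60. The causes were not tested.

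With 2 or 3 libraries per genotype, differences of the size of the standard errors, 0.06 to 0.12 on the log2 scale, were not detectable. At 35.8 CPM or more, counting error is small for these genes, and the spread between libraries sets the precision.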
